A study of Mus musculus with 6 samples.

Results

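A set of 40 genes for chemokines, cytokines and their receptors was examined in mouse osteoblasts with and without the retinoblastoma protein, pRb. The genes were listed by name. For each, the probe sets (groups of short probes for 1 transcript) annotated with that gene symbol alone were taken, and the one with the highest mean signal over the 6 arrays stood for the gene. Such a probe set was found for 39 of the 40 genes, out of 18193 genes in all. Il1rl1, which encodes the receptor of interleukin 33, was not analysed here.

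The cells were MC3T3 osteoblasts, that is, calvarial bone cells from mouse embryos at day 18.5 that had been immortalized by serial passage under the 3T3 protocol. RNA from 3 pRb-expressing and 3 pRb-deficient cultures, labelled as biological replicates of wild type and Rb Knockout, was hybridized to 1 Affymetrix array per culture. Mice carrying flox19-RB1 alleles were kept in a C57BL/6 background and bred to mice with a Cre transgene driven by a 2.3 or a 3.6 kb Col1a1 promoter, which is active in cells that make type I collagen, and the cultures came from second-generation animals. The pRb-expressing cells came from control littermates. Which of the promoters applied to these cultures, whether the control littermates carried the Cre or a floxed allele, and how many animals or lines lay behind the 3 cultures of a group, is not given in the sources used here. The p-values therefore measure the spread between these cultures, which may be technical. Both groups shared the immortalization and the medium with fetal serum, and the labels name no cytokine or other inflammatory stimulus for either.

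Chemokines are small secreted proteins that direct cell migration through receptors coupled to G proteins, and they are grouped by the spacing of their first cysteines into CC, CXC and CX3C families. Cytokines such as interleukin 6, leukemia inhibitory factor and oncostatin M signal through the shared receptor chain gp130, encoded by Il6st, and through the JAK kinases and STAT factors, while interleukin 1, interleukin 33 and tumor necrosis factor act largely through NF-κB. In bone, osteoblasts and stromal cells use these factors to hold blood-forming cells in the marrow, to support lymphocyte precursors and to steer the formation of osteoclasts.

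The signal of Rb1 was 1124, 1119 and 1106 in the pRb-expressing cultures and 143.1, 127.1 and 123.5 in the pRb-deficient ones. Log2 signals correlated at 0.974 to 0.984 between arrays of the same group and at 0.912 to 0.917 between groups. Sex-linked genes separated the groups as well: Xist averaged 167.6 with pRb and 10960 without it, and the Y-linked genes Eif2s3y, Kdm5d and Uty were lower in the latter, so line of origin and pRb status cannot be told apart. Of 10 osteoblast markers tested, 9 were lower in pRb-deficient cultures, among them Ibsp, Pth1r and Dmp1, and 1, Phex, was higher. Ptprc, which marks all white blood cells, averaged 36.7 and 30.1, close to the floor of 32 below which signals were set to 32, and the macrophage markers Aif1 and Cd163 were not above it on any array. Other macrophage and myeloid markers were above it in both groups. Among them were Csf1r (means of 438.7 and 427.2), Laptm5 (399.6 and 374.9), Adgre1 (126.9 and 102) and Spi1 (111.3 and 110.1), which did not pass. Of 13 macrophage and myeloid markers tested, Cd14 (267.8 to 983.7) and Cd68 were higher and Lyz2 was lower (1612 to 113.3), and the summed signal of that list was 3365 to 3484 with pRb and 2446 to 2885 without it. That sum adds probe sets of different scale, and Lyz2 was the 1 marker in it that passed as lower, so it is no measure of myeloid content. No lymphocyte marker passed in limma (0 of 5 tested, 1 of them, Cd79a, at an unadjusted p of 0.0243), and osteoclast, endothelial and epithelial markers had 2 of 6, 1 of 8 and 1 of 6 that passed, all of them lower. The osteoclast markers were Ctsk (means of 3580 with pRb and 150.9 without it) and Mmp9 (167.7 and 52.9). The others were Flt1 (538.5 and 155.9) and Krt8 (234.4 and 117.3). Of 12 stress genes, 7 were higher and 1 was lower, with Hspa1a rising from 17.1 to 662 on average. The part of these markers and stress genes in the results below was not tested.

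pRb-deficient osteoblasts differed from pRb-expressing ones in 17 of the 34 members that could be tested. Signals were higher for Il33, Ackr3, Cxcl10, Osmr, Tslp, Cxcl12, Tnfrsf1b, Il6st and Il13ra1, and lower for Lifr, Il7, Il1r1, Ccl7, Tnfrsf1a, Ccl2, Il17ra and Cx3cl1. The shifts ran from Il33, whose mean signal went from 16.97 to 980.3, at least 30.3-fold, down to a 1.38-fold lower Cx3cl1. A member counted as changed when its adjusted p was under 0.05 in limma, with Benjamini-Hochberg adjustment over all probe sets tested. By that rule 26.5% of the members tested were higher and 23.5% lower, beside 18.5% and 23.4% of all 16308 genes tested, and 50% of the members were called in either direction beside 41.9% of all genes. The groups did not overlap in 22 of the 34 members, 11 higher and 11 lower, or 64.7% beside 53.8% of all genes. Log2 fold changes are given throughout as pRb-deficient over pRb-expressing, ± their standard error with 3 cultures per group. Their median was 0.14 over these members and −0.09 over all genes tested.

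Many of the members' probe sets lay near background. The 5 members that were not tested (Ccl11, Ccl20, Cxcl5, Il1a and Tnf) were at or below the floor on all 6 arrays, and 15 of the 39 had a mean signal under 100 in both groups. Another 5 (Cxcl2, Il33, Csf3, Il15 and Tslp) entered the test only through the pRb-deficient cultures and 1 (Cxcl9) only through the pRb-expressing ones. For these genes every value of the other group was set to the floor, so their standard errors and p-values hold no spread from it. RNA from whole cultures cannot tell apart fewer cells that express a gene and less RNA per cell.

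**Figure D1:**
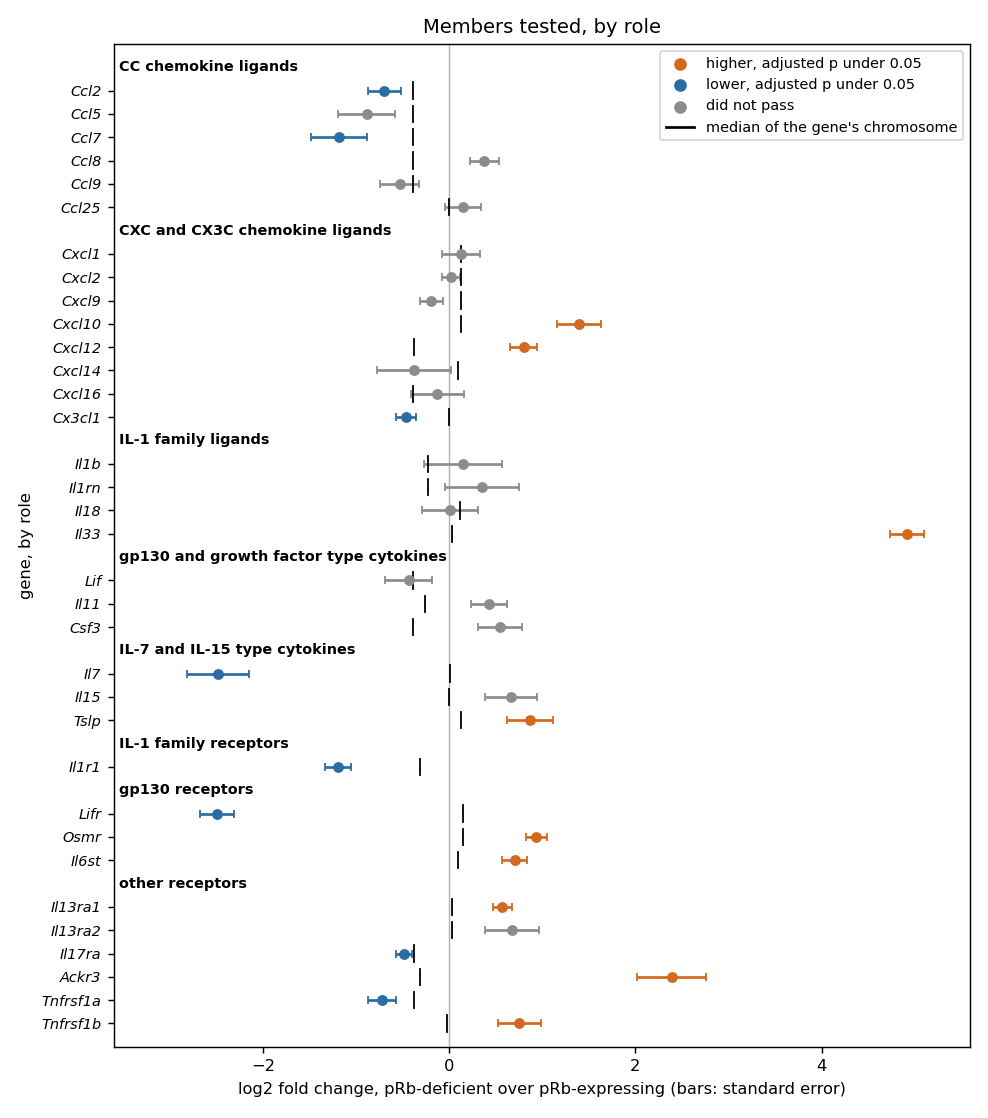
Log2 fold change (horizontal axis, pRb-deficient over pRb-expressing) of the 34 members tested, grouped by role, from the brightest probe set of each gene. Bars are standard errors in limma over 3 cultures per group, orange and blue points passed an adjusted p of 0.05 (9 higher, 8 lower), and short black lines mark the median over all genes tested on the same chromosome, which was −0.39 for the CC ligands on chromosome 11.

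**Figure D2:**
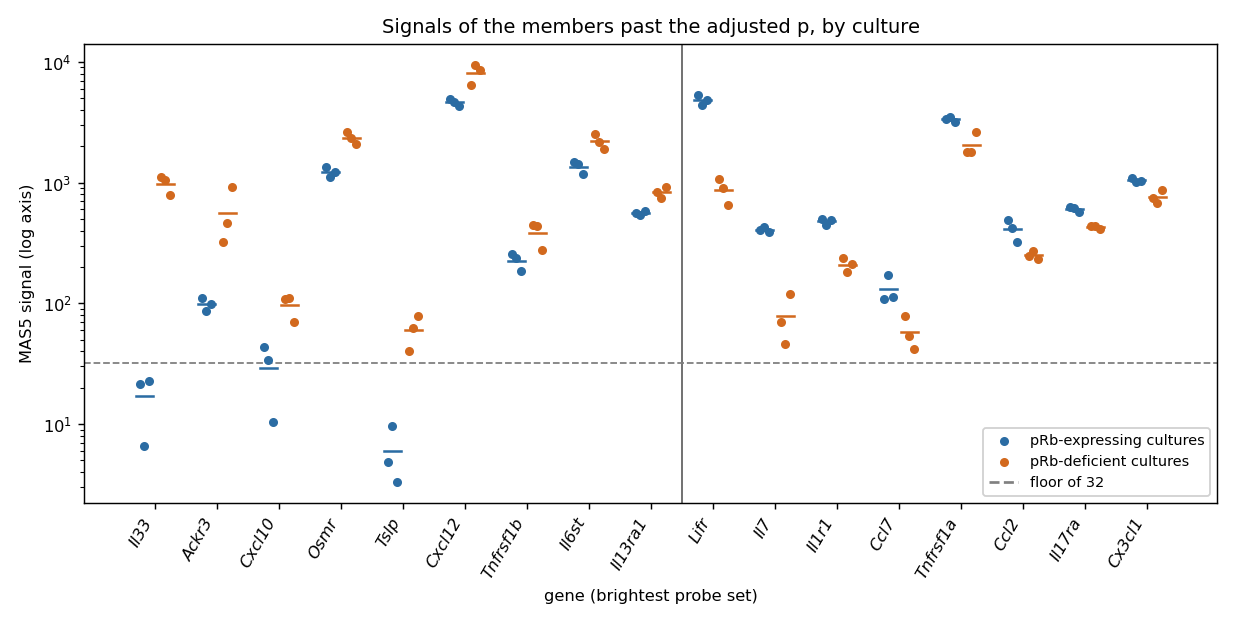
MAS5 signal (vertical log axis) in each culture for the 17 members past the adjusted p, higher ones to the left and lower ones to the right of the line. Points are cultures, short lines are group means and the dashed line marks the floor (32), under which all 3 pRb-expressing cultures lay for Il33 and Tslp.

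The CXC chemokine ligands gave higher signals for Cxcl10 and Cxcl12, and for Cxcl1 in probe sets other than the brightest. Cxcl12, which retains blood-forming cells in the marrow through its receptor Cxcr4, had signals of 4940, 4681 and 4274 in pRb-expressing cultures and 6476, 9457 and 8542 in the pRb-deficient ones. The groups did not overlap, and the log2 fold change was 0.80 ± 0.14 (adjusted p = 0.00468 in limma). A second probe set was higher as well (1.06, adjusted p = 0.00677 in limma), and the third, with means of 84.8 and 109.4, did not pass (0.37, adjusted p = 0.423). The gene lies on chromosome 6, whose genes had a median log2 fold change of −0.37. Cxcr4 itself, looked up after its values were seen, was near the floor, with means of 39.3 and 13.6 (adjusted p = 0.0865 in limma).

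Cxcl10, an interferon-induced chemokine that attracts T cells, was dim but separated. Its signals were 43.1, 33.8 and 10.3 in pRb-expressing cultures and 108.4, 110.5 and 70.2 in the pRb-deficient ones, at least 2.62-fold higher (adjusted p = 0.00383 in limma). With a floor of 100 in place of 32 it no longer passed.

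Cxcl1, a neutrophil attractant, depended on which of its 3 probe sets was read. The brightest gave 937.5, 1715 and 1146 in pRb-expressing cultures and 1416, 1338 and 1276 in the pRb-deficient ones, and these groups overlapped (log2 fold change 0.13, 95% interval −0.36 to 0.62, adjusted p = 0.675 in limma). Its identifier carries the suffix x, which marks probe sets in which some probes can also bind other transcripts. In the second probe set the signals were 477.3, 483.4 and 405.4 against 766.4, 759.7 and 775, a log2 fold change of 0.76 (adjusted p = 0.00105 in limma). In the third, which carries no such suffix, they were 10.3, 37.4 and 9.6 against 967.6, 1012 and 997.8, at least 29.4-fold higher (adjusted p = 3.65e-06 in limma). The last of these was near the floor in every pRb-expressing culture and bright in every pRb-deficient one. When the log2 values of all 3 were averaged, Cxcl1 passed with a log2 fold change of 1.92. The location of the probes in the transcript was not examined, and whether other transcripts add to any of the 3 probe sets was not tested.

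Cxcl2, the neighbouring gene on chromosome 5 and a neutrophil attractant as well, stayed at 24.1 to 33.4 on all 6 arrays (log2 fold change 0.02, adjusted p = 0.892 in limma), and Cxcl5 was not above the floor on any. The sequences just before the start sites of Cxcl1, Cxcl2 and Cxcl10 are shown because all 3 hold a match to the κB motif, which NF-κB binds, while their signals differed. That of Ackr3, described with the receptors, is shown for its match to an E2F motif, E2F being the family of factors that pRb restrains. The capitals mark the match, and each run of 120 bases ends at the base before the start.
Cxcl1: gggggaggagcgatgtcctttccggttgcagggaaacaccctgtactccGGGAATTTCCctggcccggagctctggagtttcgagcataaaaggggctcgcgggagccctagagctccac
Cxcl2: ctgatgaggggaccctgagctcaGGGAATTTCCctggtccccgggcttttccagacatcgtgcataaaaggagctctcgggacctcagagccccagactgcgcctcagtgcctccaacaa
Cxcl10: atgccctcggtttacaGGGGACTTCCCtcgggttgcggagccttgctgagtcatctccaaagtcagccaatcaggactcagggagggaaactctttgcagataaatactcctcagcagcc
Ackr3: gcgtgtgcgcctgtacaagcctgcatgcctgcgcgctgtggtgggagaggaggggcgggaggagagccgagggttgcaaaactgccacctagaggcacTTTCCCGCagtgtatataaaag

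These runs are from the RefSeq annotation of GRCm38.p6, at chr5:90891125-90891244 on the plus strand for Cxcl1, chr5:90903779-90903898 on the plus strand for Cxcl2, chr5:92348890-92349009 on the minus strand for Cxcl10 and chr1:90203860-90203979 on the plus strand for Ackr3. Cxcl1 and Cxcl2 carry the same 10 letters, 71 to 62 and 97 to 88 bases before the start. In Cxcl10 a pair of overlapping matches reaches from 104 to 94 bases before the start. The third Cxcl1 probe set rose from near the floor, the brightest one did not pass, and Cxcl2 was at the floor in nearly every culture. Whether NF-κB bound these letters in any culture was not tested.

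Motifs were searched on both strands of windows from 250 bases before to 50 bases after the start, which the RefSeq tables held for 29 of the 40 members in 37 windows. The κB motif, searched as GGGRNYYYCC with R for A or G, Y for C or T and N for any base, was found in 5 members. These were Ccl9, Ccl20, Cxcl1, Cxcl2 and Cxcl10, and the motif was in 5.8% of all 32851 windows. The E2F motif, searched as TTTCCCGC, TTTGCCGC, TTTCGCGC and TTTGGCGC, was found in Ackr3, 22 to 15 bases before the start, and in 2.26% of all windows. The AP-1 motif TGANTCA was found in 9 members and in 7.81% of all windows, the interferon-response motif, TTTC and TTTC with NN between them, in 3 (Cxcl10, Cxcl14 and Tnfrsf1b) and in 3.44%, and the STAT motif TTCNNNGAA in 3 (Cxcl14, Tnfrsf1a and Tnfrsf1b) and in 8.3%. Of the 37 member windows, 5 held a κB match, 9 an AP-1 match, 1 an E2F match, 3 an interferon-response match and 3 a STAT match. No match of one motif overlapped that of another in a member's window. These are matches of letters and not measured sites.

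Cx3cl1, a chemokine tethered to the cell membrane, was the 1 lower gene of the group. Its signals were 1088, 1011 and 1041 in pRb-expressing cultures and 743.3, 672.5 and 868.9 in the pRb-deficient ones (log2 fold change −0.47 ± 0.11, adjusted p = 0.0135 in limma). All pRb-deficient cultures lay below all pRb-expressing ones, but its other probe sets tested, at −0.35 and 0.10 on the log2 scale, did not pass (adjusted p = 0.181 and 0.574). The call was lost without pRb-expressing culture 1, 2 or 3 (adjusted p = 0.067, 0.0529 and 0.0559 in limma), without pRb-deficient culture 1 (0.0505) and with all probe sets of the gene averaged (0.224). Besides Cxcl1 and Cxcl2, Cxcl9, Cxcl14 and Cxcl16 did not pass, with log2 fold changes of −0.38 to −0.13.

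**Figure D3:**
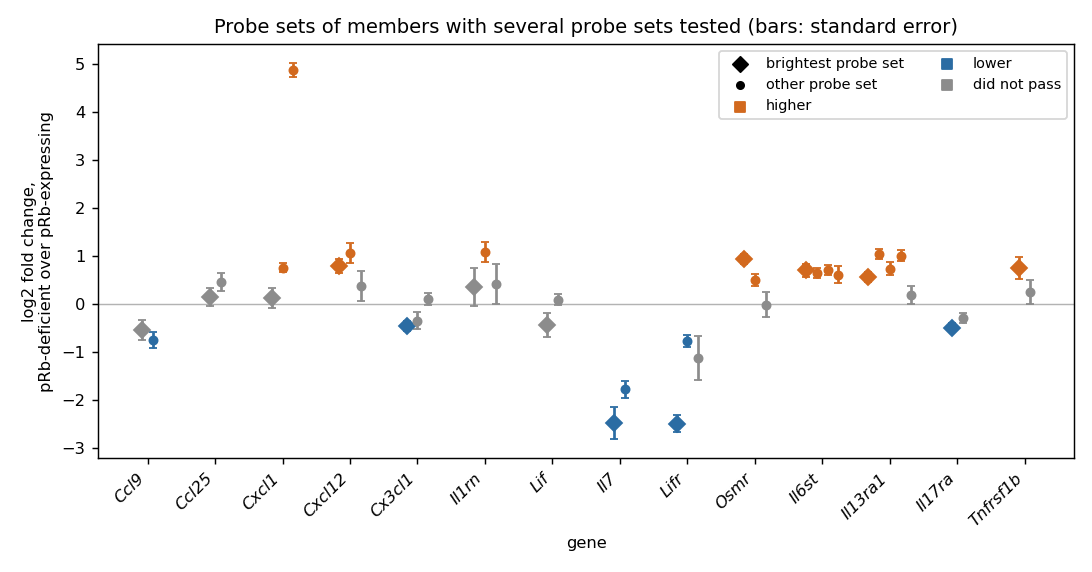
Log2 fold change (vertical axis, pRb-deficient over pRb-expressing) of every probe set tested for the members that have several. Diamonds are the brightest probe set of a gene, dots the others and bars standard errors in limma. The 3 Cxcl1 probe sets spread from 0.13 to 4.88, while all 4 of Il6st lie between 0.62 and 0.70.

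The CC chemokine ligands fell where they passed: Ccl2 and Ccl7, which attract monocytes through the receptor Ccr2, were lower in pRb-deficient cultures, and the other 4 tested did not pass. Ccl2 signals were 490.6, 418.2 and 321.8 in pRb-expressing cultures and 244.6, 272.9 and 230.8 in the pRb-deficient ones. Ccl7 signals were 107.7, 171.4 and 112.4 against 77.8, 54.1 and 42.2. Neither gene's groups overlapped, and the log2 fold changes were −0.70 ± 0.18 (adjusted p = 0.0206 in limma) and −1.18 ± 0.30 (adjusted p = 0.0211). Both calls were fragile. Ccl2 was lost without pRb-expressing culture 1 or 2 (adjusted p = 0.0748 and 0.0942 in limma) and without pRb-deficient culture 1, 2 or 3 (0.0704, 0.0541 and 0.0702), and Ccl7 without pRb-expressing culture 1, 2 or 3 (0.0555, 0.0815 and 0.0594), without pRb-deficient culture 2 or 3 (0.0862 and 0.0712), with a floor of 100 and with no filter on dim probe sets.

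The genes for Ccl2, Ccl7, Ccl11, Ccl8, Ccl5 and Ccl9 follow one another in this order on chromosome 11, with others between them, and the genes of that chromosome had a median log2 fold change of −0.39, the lowest of the autosomes. With each chromosome's median removed, Ccl2 was at −0.31 (adjusted p = 0.226 in limma) and Ccl7 at −0.79 (0.0918), and neither passed. Ccl8, another monocyte attractant, went the other way within the cluster, at 167.1, 161.8 and 158 in pRb-expressing cultures and 230.2, 184.7 and 219.8 in the pRb-deficient ones. These groups did not overlap, but the log2 fold change of 0.38 did not pass (adjusted p = 0.112 in limma), whereas it did after removal of the chromosome median (0.76, adjusted p = 0.00829). The sign of Ccl8 was thus opposite to that of Ccl2 and Ccl7 in both settings.

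For Ccl9, a chemokine also made by osteoclasts, the brightest probe set gave 168.1, 187.9 and 186.8 against 109.6, 161.1 and 110.2 and did not pass (−0.53, adjusted p = 0.0945 in limma). Its other probe set gave 105.5, 111.4 and 101.7 against 60, 65.6 and 64.8 and passed (−0.74, adjusted p = 0.0126 in limma). Both probe sets were lower in every pRb-deficient culture. With the chromosome median removed, the brightest one was at −0.15 (adjusted p = 0.637 in limma). Ccl5, a T cell attractant, was at 81.5, 71.2 and 75.2 in pRb-expressing cultures and 7.3, 67.3 and 9.5 in the pRb-deficient ones. Culture 2 stood near the pRb-expressing level while the others were below the floor. The adjusted p in limma was 0.0648 with culture 2 and 0.00427 without it. In the latter fit every pRb-deficient value was set to the floor and so had no spread, and no conclusion is drawn from it. After removal of the chromosome median Ccl5 was at −0.5 (adjusted p = 0.279 in limma). Ccl25 did not pass (0.15, adjusted p = 0.602 in limma).

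Among IL-1 family ligands Il33 rose, and Il1b, Il18 and the brightest probe set of Il1rn did not pass. Il33, an alarmin that is stored in the nucleus and released from damaged cells, had signals of 21.5, 6.6 and 22.8 in pRb-expressing cultures and 1106, 1052 and 783.6 in the pRb-deficient ones. No pRb-expressing culture was above the floor and every pRb-deficient one was far above it, at least 30.3-fold (log2 fold change 4.92 ± 0.18, adjusted p = 7.45e-06 in limma). Every pRb-expressing value was set to the floor, so the standard error and the adjusted p hold no spread from that group. The change of Il33 was the largest among the brightest probe sets of the members. It passed in all 19 alternative settings, including that with no floor. The array has 1 probe set for this gene under the naming used here.

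Il1rn encodes the antagonist that occupies the interleukin 1 receptor without signalling. Its brightest probe set gave 88.9, 95.4 and 45.9 against 145.3, 66.1 and 84, overlapping groups (0.35, adjusted p = 0.55 in limma). A second one gave 39, 58.1 and 49 against 95.8, 99.9 and 111.6 and passed (1.09, adjusted p = 0.00598 in limma), and the third did not (0.41, adjusted p = 0.501). Il1b, the main secreted interleukin 1, was at 0.15 (95% interval −0.85 to 1.15, adjusted p = 0.822 in limma), and Il1a was not above the floor on any array.

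Il18, an activator of natural killer cells, split the pRb-deficient cultures. It was at 663.6, 665.9 and 655.7 in pRb-expressing cultures, which agree closely, and at 1084, 634.9 and 427.7 in the pRb-deficient ones, so that the mean difference was 0.01 on the log2 scale (95% interval −0.71 to 0.73, adjusted p = 0.988 in limma). The stress genes Ddit3 (7892, 2514 and 1210) and Atf3 (1020, 463.3 and 131.6) had the same order over pRb-deficient cultures 1, 2 and 3. So did Gadd45a (5265, 2914 and 1182) and Gadd45b (2059, 1902 and 1598). Jun (4481, 6460 and 7104), Hsp90aa1 (12350, 13760 and 15450) and Dnajb1 (1622, 1900 and 2136) had the opposite order. The other stress genes had neither. Among the other members tested, Lifr, Il33, Osmr, Il6st, Tnfrsf1b, Ccl7, Cxcl14 and the brightest probe set of Cxcl1 had the order of Il18. Ackr3, Tslp, Csf3, Ccl25 and Tnfrsf1a had the opposite order, and the rest had neither. The part of this difference between cultures in the results for these genes was not tested.

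Il7, the growth factor that osteoblasts and stroma supply to B cell precursors, had the lowest adjusted p of the ligands among the members that fell. The signals were 403.8, 428.3 and 388.7 in pRb-expressing cultures and 70.5, 45.7 and 118.6 in the pRb-deficient ones. No pRb-deficient value came near the pRb-expressing ones, a 5.6-fold difference (log2 fold change −2.49 ± 0.34, adjusted p = 0.00132 in limma). Its second probe set went from 110.4, 92.4 and 129.4 to 6.2, 5.6 and 6.8, at least 3.43-fold lower (adjusted p = 0.00036 in limma). The pRb-deficient values of the second were all set to the floor and had no spread. Both probe sets fell, and the call of the first held in all 19 alternative settings.

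Tslp, a cytokine related to interleukin 7 that acts on dendritic cells, was higher at a low level, 4.8, 9.7 and 3.3 against 40.3, 62.5 and 79. The difference was at least 1.82-fold (adjusted p = 0.0317 in limma). It was lost without pRb-expressing culture 1, 2 or 3 (adjusted p = 0.109, 0.117 and 0.104 in limma), without pRb-deficient culture 2 or 3 (0.115 and 0.0689), with no filter on dim probe sets and with chromosome medians removed (0.0585). Il15, which supports natural killer cells, was at 4.8, 23.9 and 4.8 against 60.1, 68.3 and 26.2 and did not pass (adjusted p = 0.114 in limma). Without pRb-deficient culture 3, the 1 at the floor, Il15 did (adjusted p = 0.00288 in limma). Every pRb-expressing value of Tslp and Il15 was below the floor and was set to it. The pRb-expressing group thus had no spread, and the p-values of both genes hold none from it. Leaving out culture 3 also removed the only pRb-deficient Il15 value at the floor, so no conclusion is drawn from that pass.

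None of the cytokines of the gp130 and growth factor type passed. Lif was at −0.44 (95% interval −1.04 to 0.17), Il11, which promotes bone formation, at 0.43 (−0.04 to 0.90) and Csf3, the granulocyte growth factor, at 0.54 (−0.01 to 1.1) on the log2 scale, with adjusted p of 0.245, 0.145 and 0.124 in limma and none of them at an unadjusted p under 0.05. Csf3 read 24.4, 26.8 and 26 in pRb-expressing cultures and 16.5, 54 and 58.8 in the pRb-deficient ones. It passed without pRb-deficient culture 1 (adjusted p = 0.00261 in limma), the only culture of that group below the floor. Every pRb-expressing value was set to the floor and so had no spread, and no conclusion is drawn from that pass. With chromosome medians removed, Il11 and Csf3 passed (0.69 and 0.93, adjusted p = 0.0397 and 0.0248 in limma). The medians were removed after signals had been set to the floor. This lifted the floored pRb-deficient value of Csf3, while its pRb-expressing values had no spread. No conclusion is drawn from that pass of Csf3.

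Of the 10 receptors tested 9 passed, and of the 24 ligands 8, beside 41.9% of all genes, and the difference between receptors and ligands was not tested. They differed in brightness too. Mean signals were under 100 in both groups for 3 of 8 CC ligands and 4 of 9 CXC and CX3C ligands. Among receptors this was so for 0 of 3 of the gp130 family and 1 of 6 outside the gp130 and IL-1 families. All 3 receptors of the gp130 family changed, and not in 1 direction. Lifr, the chain that binds leukemia inhibitory factor, had signals of 5274, 4399 and 4864 in pRb-expressing cultures and 1077, 904.9 and 648.6 in the pRb-deficient ones. Osmr, the chain that binds oncostatin M, had 1351, 1108 and 1217 against 2624, 2326 and 2095. Il6st, which encodes the gp130 chain that both pair with, had 1468, 1418 and 1175 against 2550, 2190 and 1893. No group overlapped the other for any of the 3.

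Lifr was 5.63-fold lower (log2 fold change −2.49 ± 0.18, adjusted p = 9.09e-05 in limma) and passed in all 19 alternative settings. Its second probe set fell less (−0.77, adjusted p = 0.00276 in limma) and the third, a dim one, did not pass (−1.12, adjusted p = 0.101). Osmr was 1.91-fold higher (0.94 ± 0.11, adjusted p = 0.000732 in limma), with a second probe set at 0.51 (0.0172) and the third, with means of 72.5 and 71.5, at −0.01 (0.976). Il6st was 1.63-fold higher (0.70 ± 0.13, adjusted p = 0.00606 in limma), and its other 3 probe sets rose by 0.62 to 0.70. Lifr and Osmr, which changed in opposite directions, both lie on chromosome 15, whose median was 0.15.

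Il1r1, the signalling receptor of interleukin 1, was at 496.4, 447.4 and 486.1 in pRb-expressing cultures and 239, 180 and 209.8 in the pRb-deficient ones, a 2.29-fold lower level (−1.19 ± 0.14, adjusted p = 0.000724 in limma). The groups were far apart relative to their spread, and the call held with each culture left out in turn and with the chromosome median removed. The receptors of tumor necrosis factor moved apart. Tnfrsf1a, which carries the death domain, was lower at 3370, 3475 and 3185 against 1788, 1800 and 2610 (−0.72 ± 0.15, adjusted p = 0.00935 in limma). Tnfrsf1b, which lacks it, was higher at 256, 237.1 and 184.3 against 447, 434.2 and 277 (0.75 ± 0.23, adjusted p = 0.0404 in limma).

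Both calls were less stable than that of Il1r1. Tnfrsf1a was lost without pRb-expressing culture 1 or 2 (adjusted p = 0.0589 and 0.0697 in limma), without pRb-deficient culture 2 (0.0559) and with the median of chromosome 6 removed (−0.34, 0.133). Tnfrsf1b was lost without pRb-expressing culture 1, 2 or 3 (0.086, 0.123 and 0.146), without pRb-deficient culture 1 or 2 (0.143 and 0.158), with no filter, with no intensity trend and with its probe sets averaged (0.116). Its second probe set did not pass (0.26, adjusted p = 0.495 in limma). Tnf itself was not above the floor on any array.

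Ackr3, a scavenging receptor that takes up Cxcl12, rose from 111.1, 85.6 and 98.7 to 322.1, 459.1 and 914.5. All pRb-deficient cultures were well above the pRb-expressing ones but differed among themselves, so that the 5.24-fold difference had a wide error (log2 fold change 2.39 ± 0.37, adjusted p = 0.00237 in limma). Ackr3 and Cxcl12 were thus both higher in pRb-deficient cultures. Il13ra1, a chain of the interleukin 4 and 13 receptors, was at 562.8, 536.4 and 583.9 against 839.6, 744.4 and 919.9 (0.57 ± 0.10, adjusted p = 0.0045 in limma). Of its 4 other probe sets 3 passed, at 0.74 to 1.04, and 1 did not (0.19, adjusted p = 0.515 in limma). Il13ra2, the decoy receptor of interleukin 13, was at 0.67 (95% interval −0.02 to 1.36, adjusted p = 0.123 in limma), and passed without pRb-expressing culture 1 (0.0199). Il13ra1 and Il13ra2 lie on chromosome X, whose median was 0.02, and the groups differed in Xist. The part of that difference in these values was not tested.

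Il17ra, the receptor chain for interleukin 17, was lower at 624.2, 614.7 and 570.3 against 433.3, 437.4 and 416.6 (−0.49 ± 0.09, adjusted p = 0.00439 in limma). The groups were tight and apart. It lies on chromosome 6, and with that chromosome's median of −0.37 removed it was at −0.12 and did not pass (adjusted p = 0.344 in limma). Its second probe set did not pass either (−0.30, adjusted p = 0.0786).

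Other genes of these families were taken from 6 lists of known chemokine ligands, chemokine receptors, cytokines, cytokine receptors and signalling proteins, 212 genes with 162 tested. Of these, 32 were higher and 31 lower (38.9%), with a median log2 fold change of −0.03. Chemokine receptors had the lowest share called, 1 higher and 1 lower of 17, or 11.8%. JAK, STAT and SOCS signalling had the highest, 7 higher and 8 lower of 23, or 65.2%. The lists differed in brightness as well. Of the genes with a probe set, 13 of 20 chemokine receptors had a mean signal under 100 in both groups. In the JAK, STAT and SOCS list this was so for 1 of 24. The part of brightness in these shares was not tested. Beside 41.9% of all genes tested, the remaining lists had 30.8% (other chemokine ligands, 13 tested), 32.1% (other cytokines, 28 tested), 38.3% (other cytokine receptors, 47 tested) and 44.1% (NF-κB, IL-1 and TNF signalling, 34 tested).

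**Figure D4:**
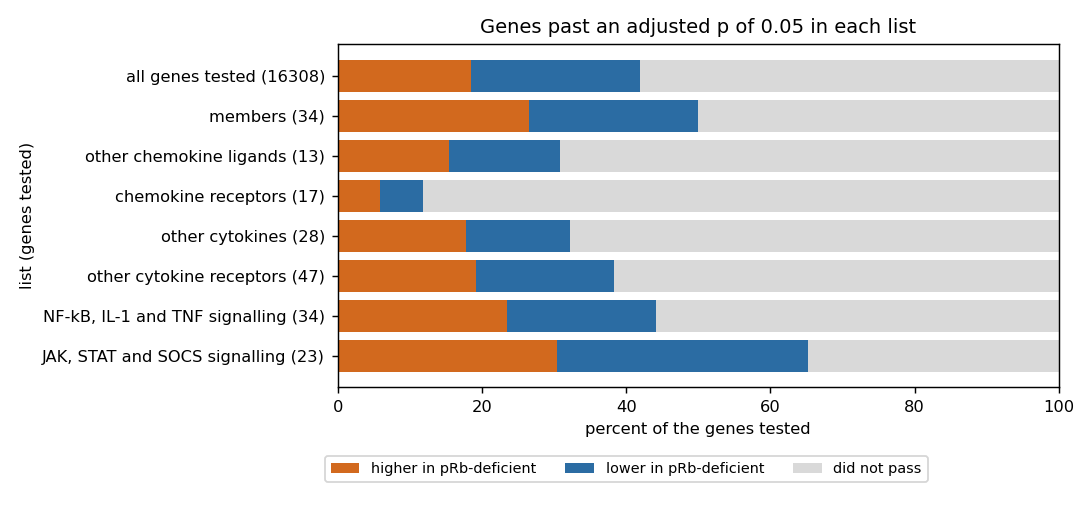
Percent of the genes tested (horizontal axis) that were higher (orange), lower (blue) or did not pass (grey) at an adjusted p of 0.05 in limma, for all genes, the members and 6 lists of related genes, with the number tested in brackets. The shares called run from 11.8% of chemokine receptors to 65.2% of JAK, STAT and SOCS signalling genes, beside 41.9% of all genes. The lists differ in brightness: 13 of 20 chemokine receptors had a mean under 100 in both groups, and 1 of 24 JAK, STAT and SOCS genes.

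Among the other chemokine ligands, Ppbp, a neutrophil attractant best known from platelets, was at 21.4, 33.3 and 19.5 in pRb-expressing cultures and 419.7, 1107 and 2212 in the pRb-deficient ones, at least 31.1-fold higher (adjusted p = 0.000544 in limma). It lies near Cxcl5 and Cxcl1 on chromosome 5. Cxcl11, which binds the same receptor as Cxcl10, averaged 18.2 and 71.5 (adjusted p = 0.00352 in limma), although a second probe set did not pass (−0.10, 0.781). In the probe set that passed, every pRb-expressing value was set to the floor, so its p-value holds no spread from that group. Ccl27a fell from 86.3 to 38.8 (adjusted p = 0.0105 in limma). The 2 chemokine receptors that passed were Ackr4, which scavenges Ccl25 and related CC ligands, and Cxcr6, the receptor of Cxcl16. Ackr4 went from 1562, 1640 and 1872 to 51.3, 37.5 and 62.4 (log2 fold change −5.10, adjusted p = 9.68e-06 in limma), and Cxcr6 from 72.4, 102.9 and 71.7 to 924.9, 741.2 and 563.6 (3.17, adjusted p = 9.87e-05). The scavenging receptors Ackr3 and Ackr4 thus changed in opposite directions.

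Of the other cytokines, Kitl, the ligand of the Kit receptor, rose from 474.4, 368.9 and 428.4 to 3038, 4162 and 4484 (log2 fold change 3.19, adjusted p = 2.39e-05 in limma). Tnfsf11, which encodes the osteoclast-inducing factor RANKL, rose from means of 15.9 to 153.7, at least 4.77-fold (adjusted p = 0.000125 in limma). Every pRb-expressing value of Tnfsf11 was set to the floor, so its p-value holds no spread from that group. Csf1, the macrophage and osteoclast growth factor, fell from 5117 to 3085 (−0.73, adjusted p = 0.000326 in limma). Among the other cytokine receptors, Tnfrsf9 rose from 152.8 to 2633 (4.12, adjusted p = 4.84e-06 in limma), with a second probe set at least 27.6-fold higher and the third, at −0.19, not passing. Il10rb fell from 1203 to 592.9 and Il1rl2, a receptor of the IL-1 family, from 189.6 to 35.7 (adjusted p = 0.000399 and 0.000514 in limma). Tnfrsf11b, the decoy receptor of RANKL, was looked up after its values were seen and fell from 687.3 to 239.8 (adjusted p = 0.0028 in limma). The Tnfsf11 signal was thus higher and that of Tnfrsf11b lower in pRb-deficient cultures, both as RNA.

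Signalling proteins moved both ways. In the NF-κB, IL-1 and TNF list, Cyld, an inhibitor of NF-κB signalling, rose from 804.9 to 2001, while Ikbke, a kinase that activates it, fell from 198.1 to 28.6 and Tnip1, another inhibitor, from 2137 to 1074 (adjusted p = 2.49e-05, 6.69e-05 and 8.24e-05 in limma). Every pRb-deficient value of Ikbke was at or below the floor, so its p-value holds no spread from that group. In the JAK, STAT and SOCS list, Socs6 rose from 460.5 to 1370, the phosphatase gene Ptpn11 rose from 2718 to 4798 and Stat5a fell from 490.3 to 228.4 (adjusted p = 0.000195, 0.000272 and 0.00036 in limma). Some genes known to respond to these cytokines were looked up after their values were seen, and they did not move as a group. Socs3, which STAT3 induces downstream of gp130, was at 2005, 1786 and 1671 against 785.1, 1003 and 841.1 (−1.06, adjusted p = 0.000519 in limma), and Nfkbia, which NF-κB induces, averaged 2929 and 6227 (1.07, adjusted p = 0.000876). Some other genes that NF-κB induces differed from Nfkbia: Nfkbie fell from 376.9 to 177.5 (adjusted p = 0.00143 in limma), and Tnfaip3 (625 and 610.6, adjusted p = 0.845), Birc3, Relb and Traf1 did not pass. Nfkb2 (688.1 and 1007) and Nfkbiz (814.2 and 1069), of the same list, were higher like Nfkbia (adjusted p = 0.00444 and 0.0107 in limma). Of other genes that STAT factors induce, Socs1 (179.6 and 120.2, adjusted p = 0.28 in limma), Socs2 and Cish did not pass.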

How the data were processed

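Labelled RNA from 6 MC3T3 cultures was hybridized to 1 Affymetrix array each. The intensities that the authors deposited are linear MAS5 signals, and they had scaled every array to a mean of 500 after trimming 2% at each end. MAS5 and Affymetrix Expression Console 1.1 are the tools in the submitters' processing notes. The number of arrays limits the precision. The median signal was 107.7 to 119.5, and 24.4% to 26.6% of probe sets lay at or below 32.

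Here, 64 of 45101 probe sets were left out as controls and 6610 as at or below 32 on all arrays. Signals under 32 were set to 32, and the log2 values went into limma 3.58.1 in R 4.3.3 (lmFit, then eBayes with trend), with a term for group alone, which left 4 residual degrees of freedom. Two-sided p-values received Benjamini-Hochberg adjustment over 38427 probe sets. The study's methods name a rank test with permutations and a limit on the false discovery rate. For a single gene, an exact rank test cannot go below a two-sided p of 0.1 with 3 arrays against 3. Folds come from fitted log2 values and are lower bounds ("at least") where arrays of a group lay below 32. Where all arrays of a group did, that group had no spread, and the standard error and p-value hold none from it. GEO's platform annotation named 1 gene for 34945 probe sets, several genes for 932 and no gene for 9160, and 34741 had a gene ID in RefSeq, used for chromosomes and gene order only.

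The members and lists were chosen with earlier results of these data known. Signals in every culture are given for members past the threshold with no overlap and a mean of at least 100 in the higher group, and for members whose probe sets disagree. Those of Ccl5, Ccl8, Cxcl10, Csf3, Il15, Il18 and Tslp were added after their values were seen. Of each list, up to 3 genes with the lowest adjusted p are named, and some further markers and stress genes are named for their level or order. Replicate numbers were not taken as pairs, since residuals of same-numbered arrays correlated at only 0.02, −0.03 and 0.06. The steps were tested on simulated data. Alternatives were other floors, a pseudocount, other filters, normalizations and variance models, a replicate block, a minimum change, averaged probe sets, removal of chromosome medians and leaving out each culture.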

Additional observations from a re-analysis of the deposited data

How the results depend on the processing

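No member reversed among the alternatives run. With a minimum change of 2-fold, 1 member (Il33) was higher and 2 (Il7 and Lifr) were lower in place of 9 and 8, and 8 and 4 genes of the related lists in place of 32 and 31. With chromosome medians removed, 11 members were higher and 4 lower, and no conclusion is drawn from the pass of Csf3 among the former. Leaving out each culture in turn gave 7 to 9 members higher and 4 to 7 lower, with 4 lower without pRb-expressing culture 1 and 5 without culture 2, and 29 to 34 higher and 26 to 34 lower genes of the related lists. The cause was not tested, though fewer cultures also leave fewer degrees of freedom. With the replicate block, 9 members were higher and 8 lower, and 31 and 30 genes of the related lists, with all 34 members on the same side of the threshold. Quantile normalization and median centring changed no member's call. Members with a mean signal under 100 in both groups, 15 of 39, lie near background, where MAS5 signals limit what can be seen, and the scale of signals cannot be compared between probe sets.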
